A study of Homo sapiens with 16 samples.

Results

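The 8 genes described here, TRAPPC9, PTPRN2, SHANK2, SORCS2, RBFOX3, PRDM16, CAMTA1 and ZFAND3, are long human genes in which more open-chromatin peaks were listed after breast cancer cells had been selected on soft gel. They were chosen by name, with these same data in view, out of 20033 protein-coding genes, of which 3356 span 100 kb or more. Peaks were assigned to a gene when their summit, the position of highest read overlap, lay inside the annotated gene body on GRCh38. The higher peak counts of selected cells therefore describe how the genes were picked and are given without a test.

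ATAC-seq uses a transposase that inserts adapters where nucleosomes leave DNA exposed, and it was applied to MDA-MB-231, a human breast adenocarcinoma line with mesenchymal features, described in the labels as wild type. Ancestral and soft-selected cells were each profiled on soft polyacrylamide gel of 1 kPa and on stiff gel of 308 kPa, both carrying type I collagen, with 4 samples in each of the 4 groups. Selection meant 75 days of growth and replating on soft gel. Peaks come as 1 list for each group, so no spread between the 4 samples could be computed, and every interval below covers counting error only.

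Genes of this length consist mostly of introns, and ATAC peaks inside a gene body can mark alternative promoters, enhancers and other sites where proteins displace nucleosomes. Exon borders were not used here. Active promoters usually give the tallest peaks of a gene, whereas distal sites are lower and vary more between cell states. Several of the 8 genes are best known from neurons: SHANK2 is a scaffold protein of excitatory synapses, RBFOX3 encodes the neuronal splicing regulator NeuN, PTPRN2 is a phosphatase-like protein of secretory vesicles and SORCS2 is a sorting receptor for proneurotrophins. TRAPPC9 belongs to a complex that tethers transport vesicles at the Golgi. PRDM16 is a zinc finger regulator of brown fat and stem cell fate, CAMTA1 a calmodulin-binding transcription activator, and ZFAND3 a zinc finger protein of the AN1 type.

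The promoter windows of RBFOX3 and CAMTA1 show where the lists differ at annotated transcription starts. Of the 8 genes, 3 had an entry in the RefSeq promoter table of GRCh38.p14, with 12 windows for RBFOX3, 5 for CAMTA1 and 1 for ZFAND3, each running from 250 bases before a start to 50 bases after it. Below are the 250 bases before the start, 5′ to 3′ on the gene's strand, for 3 RBFOX3 starts that carried a peak in both selected lists and in neither ancestral list, and for a pair of CAMTA1 starts. Capitals mark bases inside a peak of selected cells on soft gel for the first 4 sequences, and inside a peak of ancestral cells on soft gel for the last.
RBFOX3, chr17:79609162-79609411, minus strand: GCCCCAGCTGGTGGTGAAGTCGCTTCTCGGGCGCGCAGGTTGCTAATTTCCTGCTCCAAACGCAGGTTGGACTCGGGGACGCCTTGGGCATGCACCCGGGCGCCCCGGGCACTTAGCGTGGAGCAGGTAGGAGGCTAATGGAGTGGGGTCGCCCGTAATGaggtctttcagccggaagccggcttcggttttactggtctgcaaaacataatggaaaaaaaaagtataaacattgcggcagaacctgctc
RBFOX3, chr17:79608614-79608863, minus strand: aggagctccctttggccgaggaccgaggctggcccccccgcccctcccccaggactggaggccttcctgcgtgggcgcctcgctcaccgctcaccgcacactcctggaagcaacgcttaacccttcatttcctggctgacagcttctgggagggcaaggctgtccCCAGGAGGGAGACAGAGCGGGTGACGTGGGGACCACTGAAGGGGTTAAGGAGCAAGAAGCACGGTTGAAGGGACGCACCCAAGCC
RBFOX3, chr17:79424749-79424998, minus strand: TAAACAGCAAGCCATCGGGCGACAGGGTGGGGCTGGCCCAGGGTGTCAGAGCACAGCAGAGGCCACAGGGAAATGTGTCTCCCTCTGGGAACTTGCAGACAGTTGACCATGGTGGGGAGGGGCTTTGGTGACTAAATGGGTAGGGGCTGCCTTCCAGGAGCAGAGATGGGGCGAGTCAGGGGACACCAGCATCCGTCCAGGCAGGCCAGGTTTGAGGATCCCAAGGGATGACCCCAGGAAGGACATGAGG
CAMTA1, chr1:6785204-6785453, plus strand: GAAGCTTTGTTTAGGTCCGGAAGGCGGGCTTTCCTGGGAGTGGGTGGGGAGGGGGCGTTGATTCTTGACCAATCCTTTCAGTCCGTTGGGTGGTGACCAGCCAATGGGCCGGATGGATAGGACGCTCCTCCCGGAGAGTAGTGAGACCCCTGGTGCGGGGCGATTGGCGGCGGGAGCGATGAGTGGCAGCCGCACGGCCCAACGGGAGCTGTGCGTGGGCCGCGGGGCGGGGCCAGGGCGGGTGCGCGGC
CAMTA1, chr1:7704486-7704735, plus strand: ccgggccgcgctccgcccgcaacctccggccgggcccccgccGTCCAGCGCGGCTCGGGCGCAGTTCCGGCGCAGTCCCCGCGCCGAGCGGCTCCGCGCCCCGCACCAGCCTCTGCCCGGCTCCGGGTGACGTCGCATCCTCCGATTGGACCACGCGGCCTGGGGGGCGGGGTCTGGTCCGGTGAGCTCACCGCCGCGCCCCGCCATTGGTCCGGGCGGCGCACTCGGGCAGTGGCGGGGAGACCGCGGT

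At the first RBFOX3 start the peaks reached a fold enrichment of 5.32 and 6.1 in selected cells on soft and stiff gel. Fold enrichment is the authors' ratio of the summit pileup, the number of overlapping fragments, to the background of the same list. Of the 250 printed bases, 160 lay inside the soft-gel peak, and the full window of 300 bp held 22 CG dinucleotides against a median of 14 over 35116 promoter windows. The start that follows it had values of 2.83 on soft and 2.94 on stiff gel with 85 bases inside the soft-gel peak, and the start at chr17:79424749-79424998 had 3.32 and 2.35 with all 250 bases inside on soft gel, whereas the stiff-gel peak met this window only after the start. A further RBFOX3 start carried a peak only in selected cells on stiff gel, at a fold enrichment of 2.35. Most of the 12 RBFOX3 windows met no peak in any list, so the printed starts are a minority picked for their peaks. None of the 12 met a peak in either ancestral list. The higher-coordinate end of the gene, from which this minus-strand gene is read, nevertheless had a peak no more than 1 kb away in both ancestral lists, at 3.87 and 4.1, and none in the selected lists. At the lower-coordinate end the ancestral values were 18.3 and 19.2, and the selected lists are undetermined there. Over all promoter windows the share that met a peak was 52.3% in ancestral cells on soft gel, 53.3% on stiff gel, and 54.6% and 55.2% in selected cells on soft and stiff gel.

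The main CAMTA1 promoter was open in all 4 lists, with a fold enrichment of 209 and 236 in ancestral cells on soft and stiff gel and 132 and 175 in selected cells. ZFAND3 gave the same order at its promoter, 174 and 186 against 97.3 and 131. At both promoters the values were lower in the selected lists, each list being scaled to its own background. The internal CAMTA1 start, the last sequence, with 49 CG dinucleotides in its window, had 17.9 and 22.7 in ancestral cells, 15.6 in selected cells on stiff gel and no listed peak in selected cells on soft gel. Both strands were searched for TGANTCA (the AP-1 motif), GGAATG (TEAD), GGGCGG (the GC box) and TGTGGT (RUNX). GGGCGG, found in 45.0% of all windows of 300 bp, occurred 1 time in the second RBFOX3 window and 2 and 3 times in the CAMTA1 windows. The other motifs occur in 7.71% (TGANTCA), 14.0% (GGAATG) and 13.1% (TGTGGT) of all windows and in none of the 5 windows from which the printed bases come.

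Across the whole series the lists held 109578 peaks in ancestral cells on soft gel, 116043 on stiff gel, and 129755 and 122591 in selected cells on soft and stiff gel. The selected lists were longer and shallower: ancestral cells had a median pileup of 111 (soft) and 132 (stiff) and selected cells of 51 and 56, with median fold enrichments of 6.47 and 6.27 against 3.59 and 4.19. Each list skips about 1 in every 100 of its peak numbers (1107 to 1311 numbers), and a place where a skipped number could lie is called undetermined. A marker gene was counted when a peak lay no more than 1 kb from either gene end. Of 6 mesenchymal or basal breast markers (VIM, CD44, AXL, ZEB1, EGFR, CAV1), 5 had such a peak in ancestral cells and 6 in selected cells. Of 7 luminal markers 5 or 6 had one, never ESR1, and of 7 neuronal markers 5 had one in every list. Of 5 blood genes only SPI1 had one in ancestral cells, while 4 and 2 had one in selected cells on soft and stiff gel. CD44 had no listed peak in either ancestral list and fold enrichments of 34.0 and 44.8 in selected cells on soft and stiff gel. These marker counts do not tell undetermined places from places without a peak, so no marker is read as closed.

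Taking the 8 genes as a whole, 426 peaks were listed in ancestral cells on soft gel, 383 on stiff gel, and 1062 and 948 in selected cells on soft and stiff gel. This is 7.92, 7.12, 19.7 and 17.6 peaks per 100 kb of gene body, and the 2 selected values lie above both ancestral values in each of the 8 genes. The ratio of selected to ancestral counts was 2.49 on soft gel (exact 95% interval 2.23 to 2.8) and 2.48 on stiff gel (2.2 to 2.79). In the 327 protein-coding genes that lie within 2 Mb of their ends the ratio was 1.33 (1.25 to 1.41) on soft and 1.31 (1.23 to 1.39) on stiff gel. These neighbours started from a higher density, 12.1 peaks per 100 kb in ancestral cells on soft gel, and reached 16.0 in selected cells. All other protein-coding genes of 100 kb or more had far fewer peaks, 2.84 per 100 kb in ancestral and 3.52 in selected cells on soft gel.

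**Figure D1:**
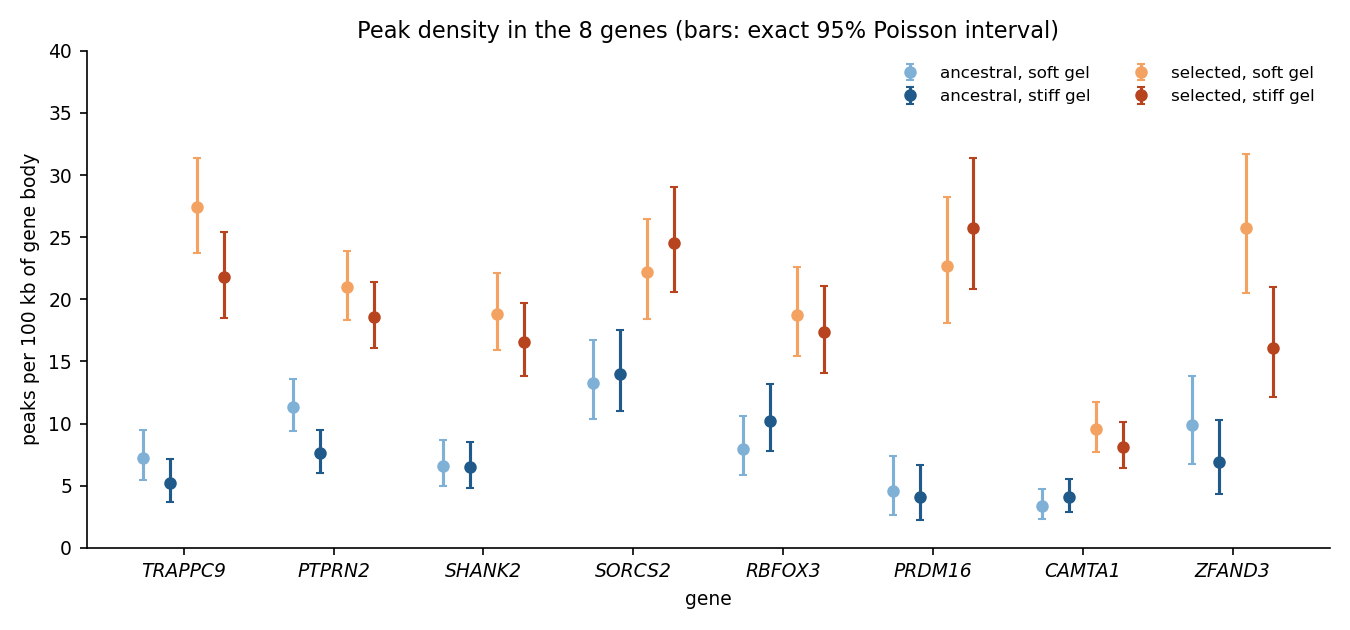
Peaks per 100 kb of gene body (vertical axis) for each of the 8 genes in the 4 peak lists; bars are exact 95% Poisson intervals. In each gene both selected lists lie above both ancestral lists, from 8.13 and 9.55 in CAMTA1 up to 27.4 in TRAPPC9 on soft gel.

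A gene of 100 kb or more with at least 10 peaks over the 2 lists compared was called higher or lower when its count, with 0.5 added, differed by 1.5-fold or more. On soft gel all 8 genes were called higher in selected cells beside 27.2% of 1686 genes tested, and 0 were called lower beside 7.06%. On stiff gel the count was again 8 of 8 beside 13.9% of 1716 genes, and 0 lower beside 10.4%. The median fold over the 8 genes was 2.7 on soft and 2.37 on stiff gel, against 1.12 and 1.0 over all genes tested. Since the genes were picked for this difference, nothing is read from these counts. The rule sets no threshold. By the plain difference in peaks on soft gel, TRAPPC9 (147 more), PTPRN2 (101) and SHANK2 (96) stand at ranks 1 to 3. The lowest of the 8 genes, SORCS2 (49), is tied with DSCAML1 and ZFAT and lies below GSE1 (76), CDH23 (61), CDH4 (58) and SDK2 (51), which were not among the genes named. On stiff gel TRAPPC9 (121) and PTPRN2 (115) stand at ranks 1 and 2, and CDH4 (103) at rank 3. The lowest of the 8 genes there, ZFAND3, stands at rank 23.

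Much of the excess consisted of weak peaks. Counting only peaks with a −log10 q-value of at least 10, the 8 genes held 207 peaks in ancestral cells on soft gel, 226 on stiff gel, and 354 and 314 in selected cells on soft and stiff gel. On that count 5 of the 8 genes passed the 1.5-fold mark on soft gel (PRDM16, ZFAND3, PTPRN2, TRAPPC9 and RBFOX3) beside 5.31% of 1355 genes tested. On stiff gel 3 did (PRDM16, PTPRN2 and TRAPPC9), beside 2.92% of 1475. SHANK2, SORCS2 and CAMTA1 did not pass on either gel, with 28 and 40 strong peaks in SHANK2, 42 and 48 in SORCS2 and 16 and 20 in CAMTA1 in ancestral and selected cells on soft gel. For ZFAND3 the strong peaks numbered 11 in ancestral cells on either gel, and 24 and 11 in selected cells on soft and stiff gel.

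TRAPPC9 (gene ID 83696, chr8:139727725-140458579, 731 kb) had 53 peaks in ancestral cells on soft gel, 38 on stiff gel, and 200 and 159 in selected cells on soft and stiff gel. Its selected-to-ancestral ratio was 3.77 (2.78 to 5.21) on soft gel and 4.18 (2.92 to 6.13) on stiff gel, while its 13 neighbours gave 1.22 (0.987 to 1.51) and 1.31 (1.04 to 1.64). The added peaks lay along the whole gene: each of 10 equal parts of its body held more peaks in selected than in ancestral cells on both gels. Every one of the 53 ancestral soft-gel peaks overlapped a selected peak, so 0 were ancestral only, which by the exact interval allows a share of up to 6.72%. The share of the gene body covered by peaks was 6.0% in ancestral and 35.3% in selected cells on soft gel. The tallest peak, at the higher-coordinate end of the gene, had a fold enrichment of 97.1 and 104 in ancestral and 51.3 and 71.9 in selected cells on soft and stiff gel. The strongest selected-only peak, at chr8:139972333-139974272, reached 4.97 on soft and 4.33 on stiff gel. Of the nearest genes of 50 kb or more on either side, KCNK9, a potassium channel gene 24.6 kb before TRAPPC9, had 15, 14, 28 and 27 peaks in the order of the lists above, and AGO2, an effector of microRNA silencing 61.6 kb after it, had 29, 22, 23 and 33.

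PTPRN2 (5799, chr7:157539056-158587823, 1048.8 kb) is the longest of the genes and had 119 and 80 peaks in ancestral cells on soft and stiff gel and 220 and 195 in selected cells. On soft gel its ratio of 1.85 (1.47 to 2.33) was the same size as that of its 14 neighbours, 1.83 (1.44 to 2.33). On stiff gel the gene stood at 2.44 (1.87 to 3.2) and the neighbours at 1.3 (1.0 to 1.69). Regions listed in all 4 groups also had higher values in selected cells: over 62 such regions the median ratio of fold enrichments, selected over ancestral, was 1.45 on soft and 1.65 on stiff gel. In RBFOX3 this ratio was 1.29 and 1.06, in CAMTA1 1.06 and 0.921, and in the other 5 genes it was below 1 on both gels. Its tallest selected peak, chr7:158359870-158362615, had a fold enrichment of 38.0 and 27.8 in ancestral and 79.6 and 68.7 in selected cells. The gene lies 0.748 Mb from the outermost listed peak of chromosome 7. Ancestral cells themselves listed more PTPRN2 peaks on soft than on stiff gel, with a ratio of 1.49 (1.11 to 2.0), while its neighbours stood at 1.02 (0.773 to 1.34). DNAJB6, a co-chaperone gene 122 kb before PTPRN2, had 16 and 22 peaks in ancestral and 20 and 15 in selected cells, and NCAPG2, a condensin II subunit gene 43.3 kb after it, had 9 and 9 against 21 and 16.

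SORCS2 (57537, chr4:7192538-7742827, 550 kb) had the highest density before selection, with 73 and 77 peaks in ancestral cells on soft and stiff gel, or 13.3 and 14.0 per 100 kb, and 122 and 135 peaks in selected cells. The ratio of 1.67 (1.24 to 2.27) on soft gel was the same size as that of its 49 neighbours, 1.66 (1.39 to 1.98), and on stiff gel it was 1.75 (1.32 to 2.35) against 1.44 (1.21 to 1.71). In 35 regions listed in all 4 groups the median ratio of fold enrichments was 0.828 on soft and 0.711 on stiff gel. A peak at chr4:7197520-7199656 had 155 and 203 in ancestral and 60.0 and 114 in selected cells. At chr4:7647115-7653954 the selected lists held a wide peak of 62.5 and 87.9, and in both ancestral lists this place is undetermined. TBC1D14, 159 kb before SORCS2, had 11 and 13 peaks in ancestral and 30 and 24 in selected cells, and AFAP1, a gene for an actin filament-associated protein 15.9 kb after it, had 23 and 23 against 28 and 31. SORCS2 hosts the hairpin of MIR4274, which met a peak of 3.18 in selected cells on soft gel and in no other list. A further SORCS2 hairpin, MIR4798, met only a peak of 2.2 in selected cells on stiff gel. In PRDM16, MIR4251 met only a peak of 2.14 in selected cells on soft gel, and MIR3664 in SHANK2 met none. The mature form of MIR4274 is shown because its value was the highest of these. The seed (bases 2 to 8) is in capitals and the sequence is from RefSeq.
hsa-miR-4274: cAGCAGUCccucccccug

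SHANK2 (22941, chr11:70467854-71253234, 785 kb) had 52 and 51 peaks in ancestral cells on soft and stiff gel and 148 and 130 in selected cells. The ratio was 2.85 (2.06 to 3.98) on soft and 2.55 (1.83 to 3.6) on stiff gel, and 1.53 (1.27 to 1.86) and 1.48 (1.22 to 1.79) in its 50 neighbours. Each of the 10 equal parts of its body held more peaks in selected cells on both gels, although a stretch of 109 kb remained without a summit in selected cells on soft gel (168 kb in ancestral cells). Its tallest peak, chr11:70481690-70483966, had a fold enrichment of 173 and 233 in ancestral and 105 and 145 in selected cells. The strongest peak that neither ancestral list held, chr11:70568830-70572094, reached 4.01 on soft and 3.01 on stiff gel. PPFIA1, which encodes a liprin scaffold protein 83.5 kb before it, had 6, 6, 18 and 15 peaks, and XNDC1N, 612 kb after it, had 1, 2, 4 and 4.

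RBFOX3 (146713, chr17:79089345-79665571, 576 kb) had 46 and 59 peaks in ancestral cells on soft and stiff gel and 108 and 100 in selected cells. The ratio was 2.35 (1.65 to 3.39) on soft and 1.69 (1.22 to 2.38) on stiff gel, and 1.28 (1.11 to 1.49) and 1.25 (1.08 to 1.44) in its 54 neighbours. On soft gel the ancestral peaks were crowded at the low-coordinate end: part 1 of 10 held 17 in ancestral and 13 in selected cells, whereas part 9 held 1 and 11. No RBFOX3 peak was tall, with a highest fold enrichment of 11.8 and 16.5 in ancestral and 13.0 and 12.9 in selected cells. The tallest selected peak, chr17:79511553-79514640, had 3.81 and 2.92 in ancestral and 13.0 and 12.9 in selected cells. A peak at chr17:79272466-79273449 went the other way, at 7.97 and 16.5 against 4.63 and 5.22. The first printed start lies in the strongest selected-only peak on soft gel, chr17:79609252-79612132, which outside the promoter window also met an ancestral stiff-gel peak of 2.12. TIMP2, a metalloproteinase inhibitor gene 164 kb before RBFOX3, had 9, 12, 20 and 18 peaks, and TBC1D16, 267 kb after it, had 9, 9, 23 and 25.

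PRDM16 (63976, chr1:3069203-3438621, 369 kb) had the largest ratios, from 17 and 15 peaks in ancestral cells on soft and stiff gel to 84 and 95 in selected cells. These are ratios of 4.94 (2.91 to 8.88) on soft and 6.33 (3.65 to 11.8) on stiff gel. Pooled over its 69 neighbours, the ratio was 0.768 (0.646 to 0.912) on soft and 0.872 (0.735 to 1.03) on stiff gel, where the interval includes 1. Gene by gene, 23 neighbours had more, 22 as many and 24 fewer peaks in selected cells on soft gel. On stiff gel 26 had more, 20 as many and 23 fewer. The contrast ran across the gene's borders: the 200 kb before it held 6 and 6 peaks in ancestral and 45 and 42 in selected cells, and the 200 kb after it held 55 and 49 against 22 and 18. MEGF6, a gene for an EGF-repeat protein 49.3 kb after PRDM16, had 41 and 41 peaks in ancestral and 13 and 11 in selected cells, whereas TTC34, 268 kb before it, had 7 and 7 against 11 and 9. Within PRDM16, 60 of 100 merged regions (60.0%) were held by both selected lists and by neither ancestral list, against 19.2% to 31.8% in the other 7 genes. The strongest of these, chr1:3286671-3290377, had a fold enrichment of 7.94 on soft and 7.71 on stiff gel. The tallest peak of the gene, chr1:3312848-3313851, was in all lists, at 50.7 and 58.3 in ancestral and 29.2 and 38.5 in selected cells.

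CAMTA1 (23261, chr1:6785454-7769706, 984 kb) was the sparsest of the genes, with 33 and 40 peaks in ancestral cells on soft and stiff gel and 94 and 80 in selected cells. At 9.55 and 8.13 peaks per 100 kb its selected density lay inside the ancestral range of the other 7 genes (4.06 to 14.0). The ratio was 2.85 (1.9 to 4.37) on soft and 2.0 (1.35 to 3.0) on stiff gel, and 1.68 (1.39 to 2.04) and 1.44 (1.2 to 1.73) in its 39 neighbours. Its tallest internal ancestral peak, chr1:7401814-7402422, had 30.1 and 36.6 in ancestral and 11.1 and 11.1 in selected cells. The summit of the promoter peak described above lies just outside the annotated body and is not in these counts, and the same holds for ZFAND3. DNAJC11, 83.6 kb before CAMTA1, had 3 and 4 peaks in ancestral and 7 and 6 in selected cells, and the circadian clock gene PER3, 14.6 kb after it, had 1 and 2 against 3 and 2.

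ZFAND3 (60685, chr6:37819727-38154624, 335 kb) had 33 and 23 peaks in ancestral cells on soft and stiff gel and 86 and 54 in selected cells. The ratio was 2.61 (1.73 to 4.02) on soft gel against 1.28 (1.12 to 1.47) in its 39 neighbours, and 2.35 (1.42 to 4.01) on stiff gel against 1.53 (1.32 to 1.77). Its tallest internal peak, chr6:37867970-37869314, had 25.8 and 32.7 in ancestral and 14.2 and 16.4 in selected cells. MDGA1, the gene for a cell-adhesion protein 122 kb before it, had 20 and 19 peaks in ancestral and 9 and 15 in selected cells, and BTBD9, which starts 13.8 kb after it, had 46 and 37 against 79 and 61.

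**Figure D2:**
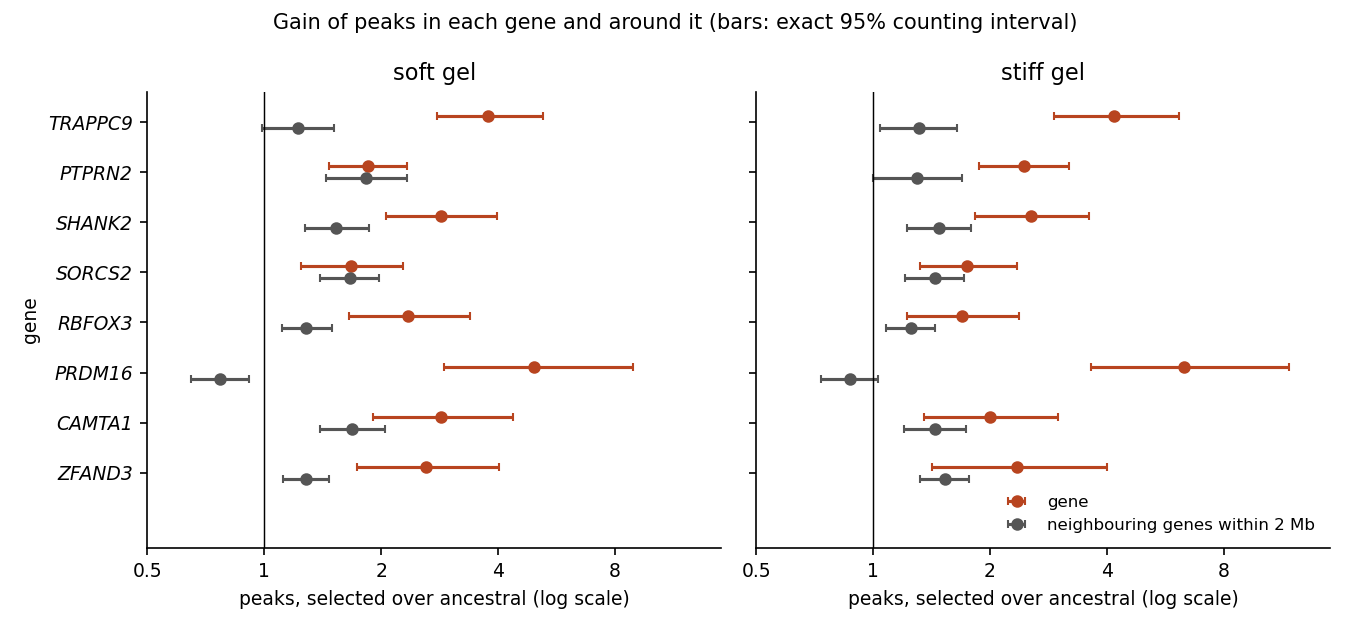
Ratio of peak counts in selected over ancestral cells (horizontal log axis) for each gene and for the neighbouring genes within 2 Mb, on soft gel (left) and stiff gel (right); bars are exact 95% counting intervals. PTPRN2 on soft gel and SORCS2 on soft gel coincide with their neighbours. PRDM16 lies above 1 while the pooled ratio of its neighbours lies below 1, with an interval that includes 1 on stiff gel.

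**Figure D3:**
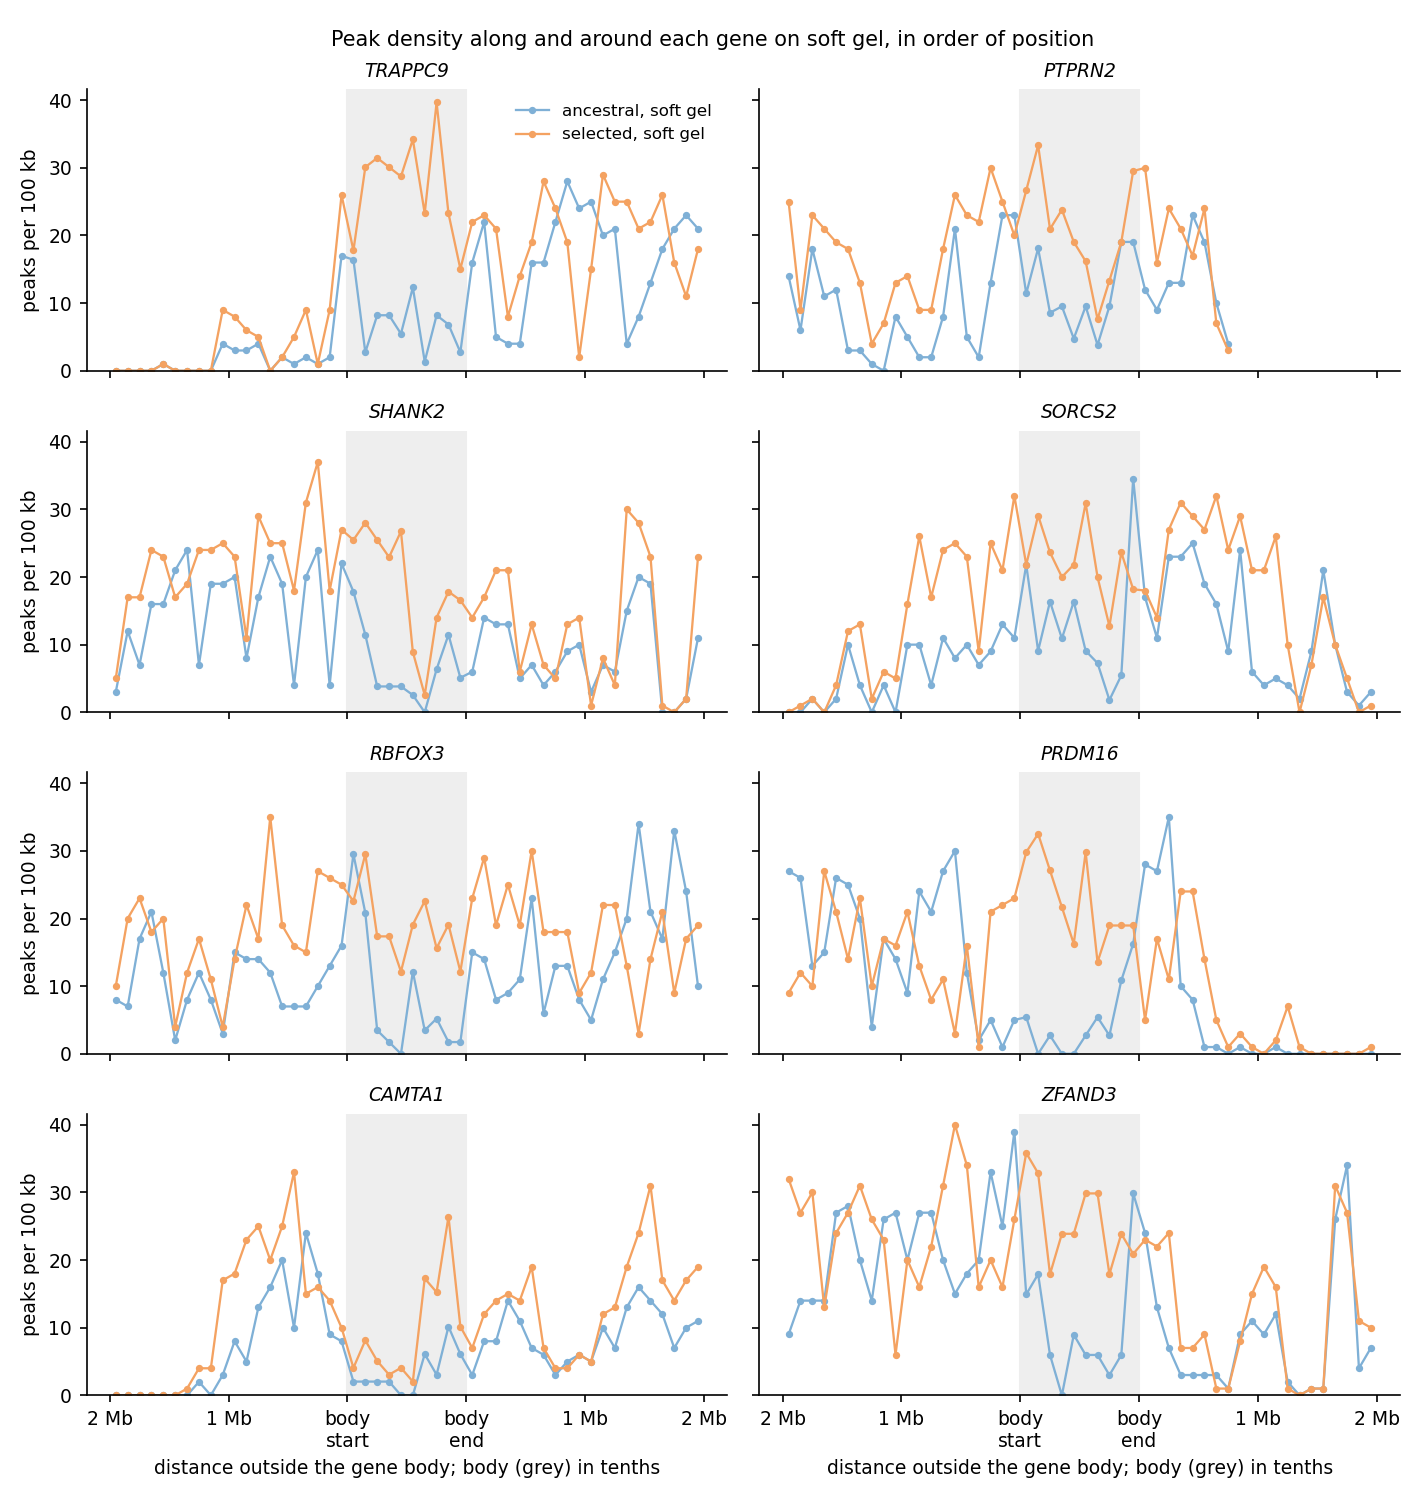
Peaks per 100 kb (vertical axis) in ancestral and selected cells on soft gel along each gene body in 10 equal parts (grey) and in bins of 100 kb up to 2 Mb on either side, ordered by position. In TRAPPC9 the selected line lies above the ancestral line in each of the 10 parts of the body, and around PRDM16 the lines cross at the gene's end.

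Between soft and stiff gel the counts lay closer together. Over the 8 genes the ratio of soft-gel to stiff-gel peaks was 1.11 (0.967 to 1.28) in ancestral and 1.12 (1.03 to 1.22) in selected cells, and 1.02 (0.957 to 1.09) and 1.04 (0.979 to 1.1) in the neighbours. The genes were not chosen by this comparison, but it draws on the same counts, so it is not independent of the choice. In ancestral cells 0 of 8 were called higher on soft gel beside 1.15% of 1733 genes tested, and 0 lower beside 3.81%. In selected cells 1 of 8, ZFAND3, was called higher on soft gel beside 10.7% of 1662 genes, and 0 lower beside 1.74%. ZFAND3 had a ratio of 1.59 (1.12 to 2.28) there, where its neighbours stood at 1.01 (0.887 to 1.15). TRAPPC9 stood at 1.26 (1.02 to 1.56) in selected cells, an interval that also excludes 1 but overlaps the 1.09 (0.89 to 1.34) of its neighbours. SORCS2 and PRDM16 had fewer peaks on soft than on stiff gel in selected cells, at 0.904 (0.702 to 1.16) and 0.884 (0.651 to 1.2), with intervals that include 1.

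Most of the excess peaks had no counterpart in the ancestral lists. On soft gel 740 of the 1062 selected peaks (69.7%, 66.8 to 72.4 by the exact Clopper-Pearson method) overlapped no ancestral peak, while 62 of 426 ancestral peaks (14.6%, 11.3 to 18.3) overlapped no selected peak. On stiff gel the numbers were 645 of 948 (68.0%, 65.0 to 71.0) and 52 of 383 (13.6%, 10.3 to 17.4). Of the ancestral-only peaks, 27 on soft and 20 on stiff gel are undetermined, against 3 and 7 of the selected-only peaks. In the neighbouring genes the selected-only share was 53.8% on soft and 48.7% on stiff gel, in other genes of 100 kb or more 37.2% and 26.6%, and over the whole lists 35.8% and 26.8%. The ancestral-only share was 28.0% and 21.6% in the neighbours and 21.7% on either gel over the whole lists. Unshared peaks follow from the counts that chose the genes, so nothing is read from these differences. By gene, the selected-only share on soft gel ran from 55.0% in PTPRN2 to 88.1% in PRDM16. Selected-only peaks were weaker and narrower than shared ones, with a median fold enrichment of 2.56 against 3.97 and a median width of 692 against 1810 bp on soft gel. On stiff gel these medians were 2.64 against 4.26 and 582 against 1299 bp.

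Merging overlapping peaks of the 4 lists gave 1214 regions in the 8 genes. All 4 lists held 227 of them (18.7%), both selected lists and neither ancestral list 331 (27.3%), and both ancestral lists and neither selected list 24. In the neighbouring genes, merged in the same way, these shares were 28.0% and 18.4% of 3066 regions, and over the whole lists 43.7% and 9.72% of 164016. Another 324 were in the selected soft list alone and 132 in the selected stiff list alone. In TRAPPC9, 68 regions were held by both selected lists only and 80 by the selected soft list only, whereas 0 were in ancestral lists only. These patterns follow from the counts that chose the genes, so nothing is read from them or from the PRDM16 share above. The 227 common regions had a median fold enrichment of 4.22 and 4.24 in ancestral and 4.77 and 5.0 in selected cells on soft and stiff gel, and 104 of them on soft and 102 on stiff gel were lower in selected cells.

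**Figure D4:**
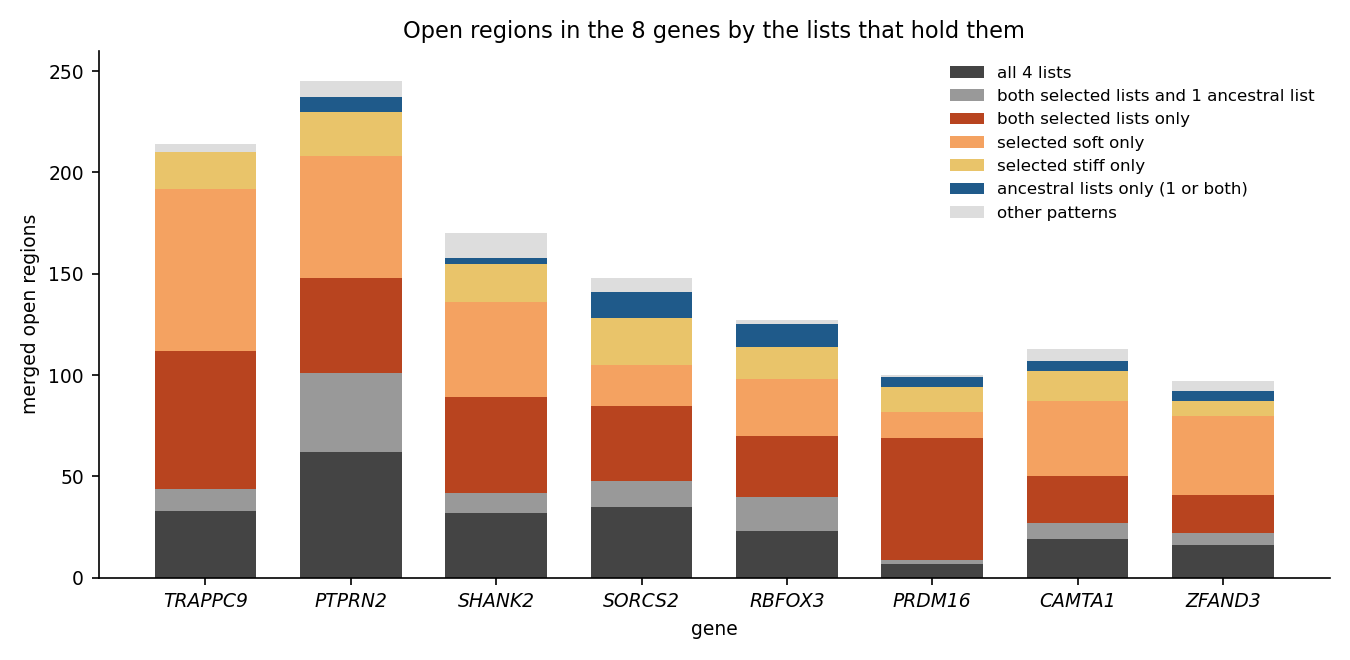
Merged open regions in each of the 8 genes (vertical axis, number of regions), stacked by which of the 4 peak lists hold them. Regions held by both selected lists only make up 60 of 100 in PRDM16 and 68 of 214 in TRAPPC9.

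Spacing and relative height of the peaks differed between ancestral and selected cells on both gels, and median width on soft gel. Spacing and the share of the bodies under peaks depend on the peak counts that chose the genes, so nothing is read from their differences. The median distance between neighbouring summits within the 8 genes was 5.63 and 6.35 kb in ancestral and 3.17 and 3.11 kb in selected cells on soft and stiff gel. In the neighbouring genes it was 3.34 and 3.48 kb in ancestral and 3.14 and 2.94 kb in selected cells, so that in selected cells the spacing within the 8 genes was close to that around them. The median width in the 8 genes was 656 and 734 bp in ancestral and 872 and 730 bp in selected cells, and the share of the bodies under peaks was 6.7% and 6.9% against 25.6% and 19.0%. Relative to the median of its own list the median pileup in the 8 genes was 0.441 and 0.492 in ancestral and 0.784 and 0.661 in selected cells. In the neighbouring genes these values were 0.495, 0.523, 0.843 and 0.75, and in all other long genes 1.08, 1.07, 1.0 and 1.02. The median pileup in the 8 genes was thus below that of the whole list in every list. The gap was smaller in the selected lists, whose median pileup was itself lower. Unscaled, the median pileup in the 8 genes was 49 and 65 in ancestral and 40 and 37 in selected cells on soft and stiff gel. The lowest pileup listed anywhere was 31 and 37 in ancestral and 27 and 26 in selected cells. This leaves the scaled value less room below 1 in the selected lists, so nothing is read from the smaller gap. The median fold enrichment was 2.89 and 3.11 in ancestral and 2.83 and 2.79 in selected cells. Whether the lower background and shallower peaks of the selected lists had a part in these counts was not tested.

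**Figure D5:**
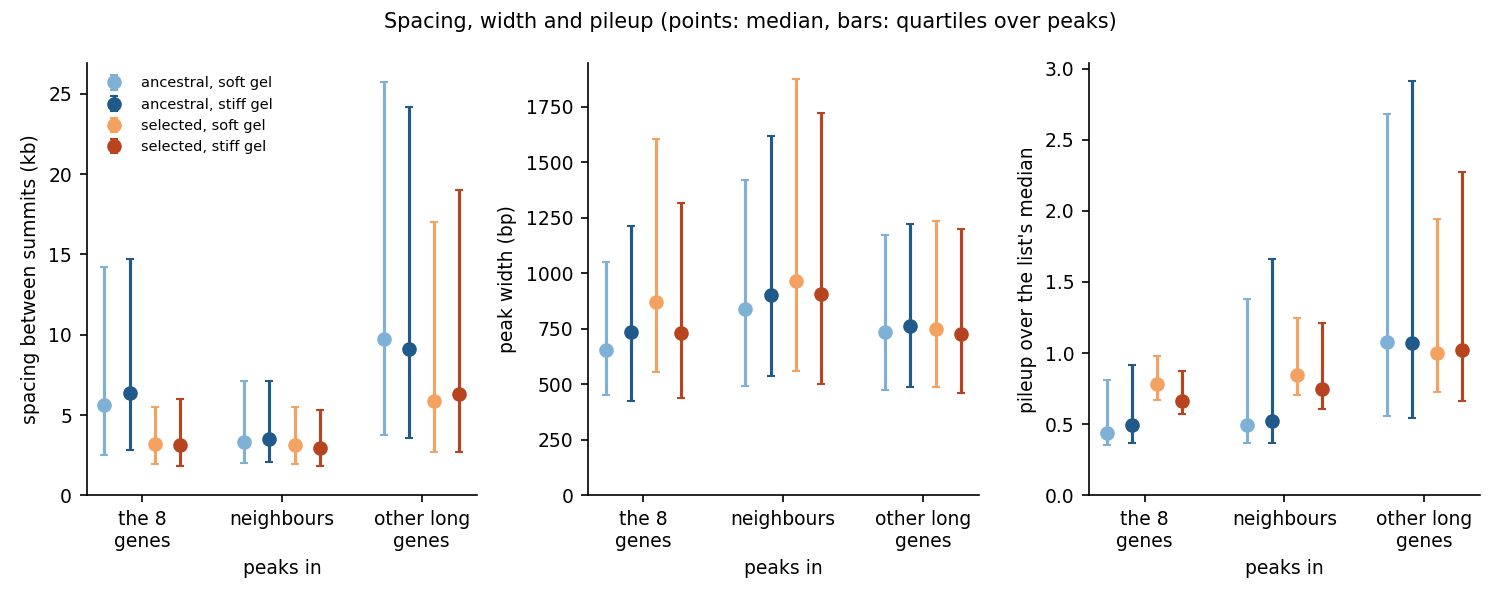
Distance between neighbouring summits, peak width and pileup over the list's median (vertical axes) for peaks in the 8 genes, in their neighbours within 2 Mb and in other genes of 100 kb or more, in the 4 lists; points are medians and bars quartiles over peaks. On soft gel the spacing in the 8 genes is 5.63 kb in ancestral and 3.17 kb in selected cells, the latter near the 3.14 kb of the neighbours.

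A feature shared by most of the 8 genes, and not named in their choice, is the place on the chromosome. Of the 8 genes, 6 (75.0%) lie within 10 Mb of the outermost listed peak of their chromosome, with distances between 0.748 Mb (PTPRN2) and 7.18 Mb (SORCS2). Of the 3356 protein-coding genes of 100 kb or more, 495 (14.7%) do, and of the 2931 with a peak in every list 435 (14.8%). Long genes that also gained peaks were not counted separately, so this place is not read as particular to the 8 genes. SHANK2 (63.8 Mb) and ZFAND3 (37.8 Mb) are the exceptions. PRDM16 and CAMTA1 lie on the same arm of chromosome 1, at 3.06 and 6.78 Mb from its outermost peak.

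Among 17 relatives of the 8 genes, 4 were called higher in selected cells on soft gel, 0 lower and 2 within the 1.5-fold mark, and 11 had too few peaks. The minimum length of 100 kb was not applied to the relatives. Of all genes of 50 kb or more, 33.6% of 2604 tested were called higher on soft gel and 19.5% of 2614 on stiff gel. SHANK1 and SHANK3, the other synaptic SHANK scaffolds, had 4 and 4 peaks in ancestral and 17 and 16 in selected cells on soft gel, and both were called higher on stiff gel too, the only relatives that were. TRAPPC12, a subunit of the related TRAPPIII tethering complex, had 4 and 7, and SORL1, a sorting receptor related to SORCS2, had 6 and 15. RBFOX2 and MECOM, the latter the closest relative of PRDM16, had fewer peaks in selected cells (10 and 7, 17 and 12) without reaching 1.5-fold. The long relatives RBFOX1, SORCS1 and SORCS3 had between 0 and 3 peaks in each list over bodies of 2473.6, 607 and 624 kb. The long genes most like the mean of the 8 in density over the 4 lists, by Euclidean distance of log2(peaks per 100 kb + 1), were RGS12 (0.23), DIP2C (0.3), DSCAML1 (0.31), PTPRE (0.32) and ZNF362 (0.33). RGS12, the nearest, had 13, 11, 34 and 29 peaks, or 8.44, 7.14, 22.1 and 18.8 per 100 kb. Among the 8 genes themselves SHANK2 was closest to the mean (0.2) and CAMTA1 farthest (1.84).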

How the data were processed

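ATAC-seq was run on 16 samples of MDA-MB-231 cells, 4 in each of 4 groups, and the authors deposited 1 peak table per group. The tools listed in the submitters' processing notes are MACS2 2.2.7.1, Bowtie2 2.4.5, Trimmomatic 0.36, MultiQC 1.1 and FastQC 0.11.4, and the build is GRCh38. The way 4 libraries became 1 list, like the caller's settings, is not given in the sources used here. Per the file headers, each peak carries a pileup signal at its summit, a −log10 q-value (a −log10 p-value was not used here) and a fold enrichment, which is a ratio over background. In the deposited values that background is a single level per list: 16.3 and 20.2 in ancestral and 13.5 and 12.6 in selected cells on soft and stiff gel. No column gives read totals, so sequencing depth is unknown.

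Gene bodies were taken from RefSeq on GRCh38.p14, and every comparison counted peak summits inside gene bodies. Neighbours were protein-coding genes lying wholly within 2 Mb of a gene and not overlapping it, with overlapping bodies merged. Poisson, Clopper-Pearson and conditional binomial intervals at 95% cover counting error only, and peaks of a list are not replicates. Peaks were shared at an overlap of 1 bp or more. In 4 comparisons, selected cells were set against ancestral cells on either gel, and soft gel against stiff gel within either population. Alternatives varied the peaks counted (a −log10 q-value of at least 10, or the 54789 peaks of highest fold enrichment), the assignment to genes, the reach and size of neighbours, the overlap rule and the gene length. The code was tested on simulated data and ran on Python 3.11.15 with pandas 2.3.3, numpy 2.4.6 and scipy 1.17.1.

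The 8 genes and the lists of relatives, markers and motifs were chosen with earlier results of these data known. Named beside the 8 genes were their 17 relatives, the nearest neighbour of 50 kb or more on either side, the 5 long genes nearest in density, and the strongest peak and strongest selected-only peak of each gene. GSE1, CDH23, CDH4, SDK2 and ZFAT were named after their values were seen, as were the flanks of PRDM16.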

Additional observations from a re-analysis of the deposited data

Results flagged for a closer look

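For 3 of the 8 genes the soft-to-stiff ratio of peak counts lay on opposite sides of 1 in ancestral and selected cells. The values come from 1 list per group, and the differences were not tested. RBFOX3 had a ratio of 0.78 in ancestral and 1.08 in selected cells, so the selected ratio was 1.39 times the ancestral one. CAMTA1 had 0.825 and 1.18, or 1.42 times. PRDM16 went the other way, with 1.13 and 0.884, or 0.78 times. In all 6 cases the counting interval of the ratio includes 1.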

How the results depend on the processing

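Of 64 alternatives, 43 left a result within its counting interval or, for gene counts, within 1.5 times, 20 moved it and 1 reversed a ratio whose counting interval had excluded 1. Among 60 that gave a log2 ratio, the sign changed in 6, that one included. Counting only peaks with a −log10 q-value of at least 10, the selected-to-ancestral log2 ratio over the 8 genes fell from 1.32 to 0.77 on soft gel and from 1.31 to 0.47 on stiff gel, and over the neighbours from 0.41 to 0.12 and from 0.39 to -0.01, a change of sign. With these peaks the soft-to-stiff log2 ratio in ancestral cells changed sign as well, from 0.15 to -0.13 over the 8 genes and from 0.03 to -0.12 over the neighbours. The log2 ratio over the neighbours also changed sign with neighbours within 1 Mb (-0.01) and with the peaks of highest fold enrichment (-0.04). At a −log10 q-value of at least 10 the log2 ratio of unshared counts, selected to ancestral, was 2.2 on soft and 1.36 on stiff gel, against 3.58 and 3.63. For soft against stiff gel in ancestral cells this log2 ratio was -1.12 against 0.36, also a change of sign. Long genes called higher numbered 72 on soft and 43 on stiff gel instead of 458 and 239. With the 54789 peaks of highest fold enrichment per list the log2 ratios were 0.87 and 0.76 over the 8 genes and 0.24 and 0.18 over the neighbours. On soft gel, neighbours within 1 Mb gave a selected-to-ancestral log2 ratio of 0.52 and neighbours of 50 kb or more 0.51. Leaving out undetermined peaks gave selected-to-ancestral log2 ratios of unshared counts of 4.4 on soft and 4.32 on stiff gel. Genes of 50 kb or more called higher numbered 875 and 511. Counting each skipped peak number as a peak, an alternative chosen after seeing the data, moved no ratio. The cause of these shifts was not tested. No paired analysis was possible because each group has 1 pooled list, and for the same reason no sample could be left out.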
